A study of Mus musculus with 18 samples.

Results

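A set of 10 genes of the circadian clock and its output were followed in mouse colon: Dbp, Tef, Hlf, Nfil3, Gm129 (the older name of Ciart), Arntl, Clock, Npas2, Bhlhe40 and Bhlhe41. These 10 of 27131 rows were taken by gene symbol, and the list was chosen by their differences in FPKM between the groups below, in these same libraries. Those differences are therefore described without a test. A mean of at least 1 FPKM over all libraries was reached by 8 of the 10, among 13976 genes in all. FPKM are fragments scaled by transcript length and library size, so levels can be compared between genes. The libraries hold polyadenylated RNA of mouse colon on the C57BL/6 background, without treatment: 9 carry the label Hif2a +/+ (WT) and 9 the label Hif2a LFL (HIF2), described as overexpressing HIF2 in the colon. The design text writes the altered allele as LSL. What drives the allele, the age and sex of the mice and the hour of day of tissue collection were not given in the sources used here. Nothing in the labels ties a library to a mouse of its own, and p-values hence reflect library-to-library spread, which may be technical.

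The circadian clock is a transcriptional feedback loop present in most cells, the gut epithelium included. BMAL1, encoded by Arntl, pairs with CLOCK or with its relative NPAS2, and the pair binds E-box sequences and activates the Period, cryptochrome and REV-ERB genes, whose products act back on the loop. The same pair activates Dbp, Tef and Hlf, the PAR bZIP transcription factors, which carry the rhythm to output genes through D-box sequences. NFIL3 is a bZIP repressor that binds the same D-boxes, CIART represses the activator pair, and DEC1 and DEC2, encoded by Bhlhe40 and Bhlhe41, are repressors that bind E-boxes. Transcripts of these genes rise and fall over the day, with Arntl and Npas2 peaking at other hours than Dbp. Bhlhe40 and Bhlhe41 are also known as hypoxia-inducible genes.

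RefSeq promoter sequences (GRCm38.p6) were at hand for 9 of the 10 genes, all but Bhlhe40, and the 250 bases before each of their 13 annotated starts were searched. The E-box was searched as CACGTG, which reads alike on both strands, and the D-box as TTATGTAA or TTACGTAA on both strands. The E-box was found before starts of 3 of the 9 genes, Ciart, Tef and Bhlhe41. Of all 32851 such windows 6.02% held it, which is a share of windows and not of genes. Genes with several starts, Tef among them, had more windows in which to find it. Ciart had 3 copies, ending 111, 53 and 39 bases before the start, and 3 or more copies were found in 0.0609% of windows. No window of the 9 genes held the D-box. Other genes of the loop were searched in the same way. Of these, Per1 and Cry1 had CACGTG before a start, in 1 copy each, and neither passed the limma test given further on. TTATGTAA was found before Per3 alone, the Period gene most like Dbp in the values given further on, in 2 copies. Of all windows, 0.0183% held 2 or more copies of TTATGTAA and 0.819% at least 1. The shorter string ACGTG, part of the sequence bound by HIF and contained in every CACGTG, was searched on both strands. Among the 9 genes it was found outside an E-box in the windows of Dbp and Npas2, in 1 copy each. Of all windows, 16.6% held it, inside or outside an E-box. Such matches describe the letters only. The windows of Ciart and Tef are shown because they hold E-boxes of the PAR bZIP and CIART genes that were lower in HIF2. That of Per3 is shown because it holds the D-boxes. This choice for display leaves out the other windows with an E-box. E-boxes and D-boxes are in capitals, and each window runs 5′ to 3′ toward the start.
Ciart, chr3:95882229-95882478, minus strand: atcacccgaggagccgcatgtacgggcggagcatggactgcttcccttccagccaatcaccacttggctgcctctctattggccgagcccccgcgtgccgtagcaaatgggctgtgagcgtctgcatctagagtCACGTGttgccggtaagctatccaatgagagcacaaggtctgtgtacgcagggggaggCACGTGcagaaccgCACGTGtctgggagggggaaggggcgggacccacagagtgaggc
Tef, downstream start, chr15:81811164-81811413, plus strand: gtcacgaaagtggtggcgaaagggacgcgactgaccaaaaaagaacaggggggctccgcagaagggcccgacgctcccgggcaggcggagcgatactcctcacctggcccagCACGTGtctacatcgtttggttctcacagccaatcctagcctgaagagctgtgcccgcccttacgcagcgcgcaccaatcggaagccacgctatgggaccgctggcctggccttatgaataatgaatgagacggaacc
Per3, chr4:151044666-151044915, minus strand: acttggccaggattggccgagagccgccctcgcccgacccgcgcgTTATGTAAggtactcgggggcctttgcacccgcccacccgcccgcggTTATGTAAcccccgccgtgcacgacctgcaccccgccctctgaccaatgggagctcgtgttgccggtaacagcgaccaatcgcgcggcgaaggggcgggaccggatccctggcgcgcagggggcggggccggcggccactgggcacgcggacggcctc

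Summed FPKM ran from 686539 to 937505 per library, and the depth behind them is unknown. Epas1, the HIF-2α gene, averaged 18.8 ± 3.09 FPKM over the WT libraries and 22.7 ± 6.36 FPKM over the HIF2 libraries (SD, n = 9 each), 5 of which lay inside the WT range. Slc11a2 and Egln3, known HIF targets, were raised in 7 of 9 HIF2 libraries, but in HIF2 replicates 2 and 4 they lay inside the WT range (Slc11a2 16.5 and 18.2 FPKM, Egln3 21.8 and 16.7 FPKM). Ankrd37, another known target, was 10.3 to 19 FPKM in WT, 32.1 and 18.6 FPKM in HIF2 replicates 2 and 4, and 180 to 459 FPKM in the other HIF2 libraries, so replicate 2 lay above WT for this gene. Both libraries are counted as HIF2 by their labels, and whether the allele was active in them was not tested. Of 10 epithelial markers, all were present in every library, with a summed level of 7013 to 10301 FPKM in WT and 7213 to 11441 in HIF2. The highest markers weigh most in this sum. The mean of the 10 in log2 units, relative to the WT mean, was -0.20 to 0.17 in WT and -0.42 to 0.03 in HIF2. Smooth muscle markers were uneven: the mean of 10 was 3.05 to 4.21 log2 units above the WT mean in HIF2 replicates 0 to 5, between -0.61 and 0.56 in HIF2 replicates 6 to 8, and 2.93 in WT replicate 3. In bulk tissue, fewer cells of a type and less RNA per cell cannot be told apart.

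In HIF2 colon, the PAR bZIP activator genes Dbp and Tef and the repressor gene Gm129 were lower, while Nfil3 and Npas2 were higher. The ratio of the WT to the HIF2 mean was 3.82 for Dbp and 4.9 for Gm129, and that of the HIF2 to the WT mean was 4.08 for Nfil3. Arntl and Clock, the central activator pair, overlapped between the groups, and Bhlhe40 was widely spread in HIF2. Past the threshold of an adjusted p of 0.05 in limma's test over all genes were 5 of the 8 genes that reached 1 FPKM, 2 higher and 3 lower, where 22.1% of all genes passed, 11.0% higher and 11.1% lower. No value of a HIF2 library lay within the WT range for 4 of the 8, Dbp, Gm129, Nfil3 and Npas2, against 2.02% of all genes, 0.758% higher and 1.27% lower. Since the 10 genes were chosen with this difference in view, nothing is read from these counts.

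**Figure D1:**
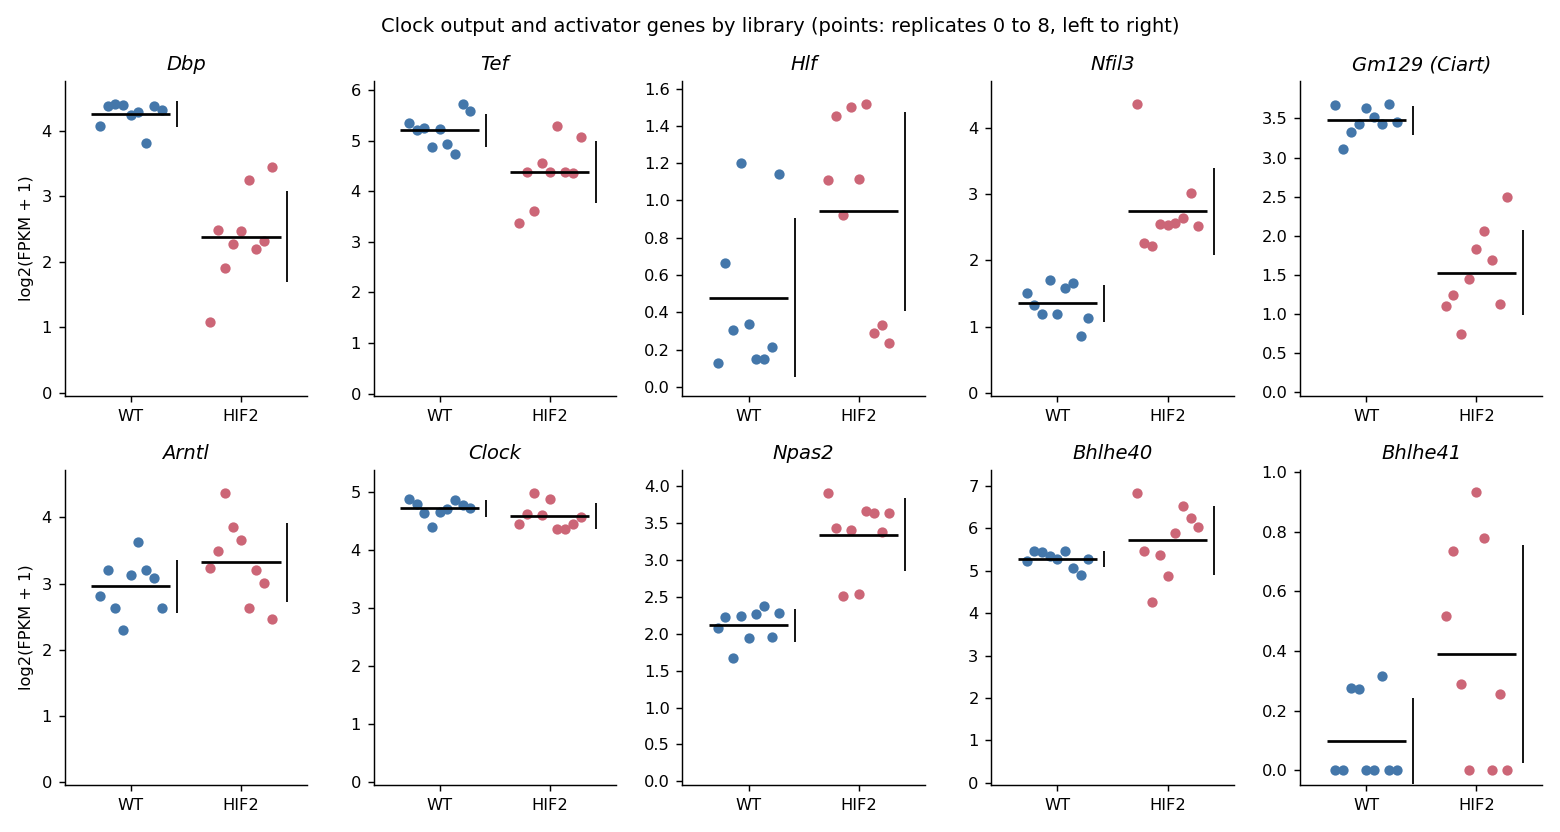
Level of each of the 10 genes as log2(FPKM + 1) in the 9 WT (blue) and 9 HIF2 (red) libraries, replicates 0 to 8 from left to right, with the mean as a horizontal line and the SD as a vertical line. Dbp, Gm129, Nfil3 and Npas2 have no overlap between the groups. Arntl and Clock overlap, and Hlf and Bhlhe41 have the lowest levels. Each panel has its own vertical axis.

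Dbp encodes a PAR bZIP factor with a strong daily rhythm in many tissues (chromosome 7, 45705088 to 45710203, GENCODE M21, as for the genes below). The 9 WT libraries, replicates 0 to 8, had 15.8, 19.8, 20.2, 19.9, 17.8, 18.5, 13, 19.7 and 19 FPKM. The 9 HIF2 libraries, in the same order, had 1.12, 4.59, 2.75, 3.83, 4.51, 8.5, 3.59, 3.99 and 9.95 FPKM. Every HIF2 library lay below the lowest WT library, with replicate 0 lowest and replicates 5 and 8 highest. The means were 18.2 ± 2.38 and 4.76 ± 2.76 FPKM, a ratio of WT to HIF2 of 3.82, and on the log2(FPKM + 1) scale, which understates changes of low genes, the difference was -1.87 (SE 0.23). The gene overlaps Sphk2 on the opposite strand, and the kit does not mark strand, so reads of the overlap cannot be assigned.

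Tef encodes the most abundant of the 3 PAR bZIP transcripts here (chromosome 15, 81802421 to 81826863). In WT replicates 0 to 8 it was 39.5, 35.9, 37, 28.3, 36.4, 29.4, 25.5, 51.8 and 46.8 FPKM. In HIF2 replicates 0 to 8 it was 9.36, 19.7, 11.2, 22.7, 19.8, 38.3, 19.9, 19.6 and 32.5 FPKM. The HIF2 libraries lay below the WT range in 7 cases and inside it in replicates 5 and 8, the 2 libraries where Dbp was also highest. The means were 36.7 ± 8.57 and 21.4 ± 9.16 FPKM, a difference of -0.83 (SE 0.22). Within a library, the ratio of Dbp to Tef was 0.381 to 0.703 in WT and 0.12 to 0.306 in HIF2, so Dbp was lower relative to Tef as well.

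Hlf, the remaining PAR bZIP gene (chromosome 11, 90336536 to 90390895), was near the lower end of what was measured and below the level used for testing. It was 0.0932 to 1.3 FPKM in WT (median 0.235) and 0.176 to 1.87 in HIF2 (median 1.16). Unlike Dbp and Tef it was above the WT maximum in 3 HIF2 libraries and below the WT minimum in none. The higher values were in HIF2 replicates 0 to 5, at 0.892 to 1.87 FPKM, and in WT replicates 3 and 8, at 1.3 and 1.21. In HIF2 replicates 6 to 8 it was 0.22, 0.259 and 0.176 FPKM. HIF2 replicates 0 to 5 and WT replicate 3 are the libraries with much smooth muscle RNA, whose part in Hlf was not tested.

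Nfil3, the D-box repressor gene (chromosome 13, 52967209 to 52981073), was higher in HIF2. WT values of Nfil3, replicates 0 to 8, were 1.84, 1.51, 1.29, 2.26, 1.29, 1.99, 2.17, 0.822 and 1.18 FPKM. HIF2 values of Nfil3 were 19.5, 3.78, 3.63, 4.88, 4.8, 4.89, 5.24, 7.11 and 4.71 FPKM. Every HIF2 library lay above the highest WT library, and replicate 0 stood far above the rest. The means were 1.6 ± 0.494 and 6.51 ± 4.98 FPKM, a difference of 1.39 (SE 0.22), and 1.19 without HIF2 replicate 0. The ratio of Dbp to Nfil3 within a library was 5.97 to 24 in WT, above 1 in 9 of 9 libraries, and 0.0573 to 2.11 in HIF2, above 1 in 3 of 9. NFIL3 also acts in the development of immune cells. HIF2 replicate 0 had 770 FPKM of 3 neutrophil markers summed (S100a8, S100a9 and Il1r2), the remaining HIF2 libraries 0.211 to 8.52 FPKM and the WT libraries 0 to 1.84 FPKM. Mpo and Elane, which mark immature neutrophils, were listed at 0 in all 18 libraries, and 0 of the 3 tested neutrophil markers passed the test. Csf3r and Cxcr2, also on the neutrophil list but below the level used for testing, were at most 2.295 and 3.248 FPKM. Csf3r was listed at 0 in 1 of 18 libraries and Cxcr2 in 0. The summed level of 7 macrophage markers was 40.3 to 110 FPKM in HIF2 and 8.21 to 45.6 in WT. The part of these cells in the Nfil3 level was not tested.

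Gm129, which encodes the repressor CIART, is annotated as Ciart (chromosome 3, 95878503 to 95882251). In WT replicates 0 to 8 it was 11.8, 7.63, 9.04, 9.76, 11.4, 10.4, 9.79, 11.8 and 9.99 FPKM. In HIF2 replicates 0 to 8 it was 1.15, 1.36, 0.682, 1.72, 2.56, 3.18, 2.22, 1.19 and 4.64 FPKM. Every HIF2 library lay below the lowest WT library, with replicate 8 nearest to it. The means were 10.2 ± 1.37 and 2.08 ± 1.24 FPKM, a ratio of WT to HIF2 of 4.9 and a difference of -1.95 (SE 0.18), which was -2.42 with a pseudocount of 0.1. An antisense transcript, C920021L13Rik, overlaps the gene and cannot be told apart without strand.

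Npas2, whose product can replace CLOCK as the partner of BMAL1 (chromosome 1, 39193731 to 39363236), differed most of the 3 genes of the activator pair, Arntl, Clock and Npas2. WT values of Npas2, replicates 0 to 8, were 3.22, 3.7, 2.19, 3.75, 2.83, 3.8, 4.21, 2.88 and 3.86 FPKM. HIF2 values of Npas2 were 14.1, 9.87, 4.7, 9.61, 4.81, 11.7, 11.4, 9.41 and 11.4 FPKM. Every HIF2 library lay above the WT maximum, but replicates 2 and 4 only just. The means were 3.38 ± 0.644 and 9.66 ± 3.12 FPKM, a difference of 1.23 (SE 0.17), and 1.47 without HIF2 replicates 2 and 4, the libraries in which Slc11a2 and Egln3 lay inside the WT range. The ratio of Npas2 to Clock was 0.0913 to 0.186 in WT and 0.152 to 0.669 in HIF2, so Clock remained the more abundant of the pair in every library.

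Arntl, which encodes BMAL1 (chromosome 7, 113207465 to 113314126), did not separate the groups. WT values of Arntl, replicates 0 to 8, were 6.04, 8.17, 5.22, 3.92, 7.79, 11.4, 8.18, 7.49 and 5.18 FPKM. HIF2 values of Arntl were 8.38, 10.3, 19.7, 13.5, 11.6, 5.17, 8.19, 7.03 and 4.53 FPKM. HIF2 replicates 2, 3 and 4 lay above the WT range and the other 6 inside it. The difference was 0.36 (SE 0.23), and its sign rested on the libraries used: it was 0.58 in HIF2 replicates 0 to 5 against all WT, and -0.15 in HIF2 replicates 6 to 8 against WT without replicate 3. Clock (chromosome 5, 76209868 to 76304792) was 20.1 to 28.5 FPKM in WT (median 25.6) and 19.6 to 30.8 in HIF2 (median 22.7), a difference of -0.13 (SE 0.09). HIF2 replicates 2 and 4, at 30.8 and 28.6 FPKM, were above every WT library, and replicates 5 and 6, both at 19.6 FPKM, were below every WT library. Without HIF2 replicates 2 and 4 the difference in Clock was -0.23 (SE 0.07).

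Bhlhe40, the DEC1 gene (chromosome 6, 108660629 to 108666925), spread to both sides of WT. WT values of Bhlhe40, replicates 0 to 8, were 36.8, 43, 42.5, 39.7, 37.8, 43.4, 32.3, 28.6 and 37.7 FPKM. HIF2 values of Bhlhe40 were 113, 42.9, 18.1, 40.4, 28.4, 58.6, 90.4, 74.8 and 64.4 FPKM. It was above the WT range in 5 HIF2 libraries, inside it in replicates 1 and 3, and below it in replicates 2 and 4. The means were 38 ± 5.01 and 59 ± 30.4 FPKM, a difference of 0.45 (SE 0.26), and 0.78 (SE 0.18) without HIF2 replicates 2 and 4. In HIF2 replicates 6 to 8, which have little smooth muscle RNA, against WT without replicate 3, it was 1.0 (SE 0.14). Bhlhe41, the DEC2 gene (chromosome 6, 145858243 to 145865558), was at most 0.246 FPKM in WT, with 6 libraries listed at 0, and at most 0.911 in HIF2, with 3 listed at 0.

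**Figure D2:**
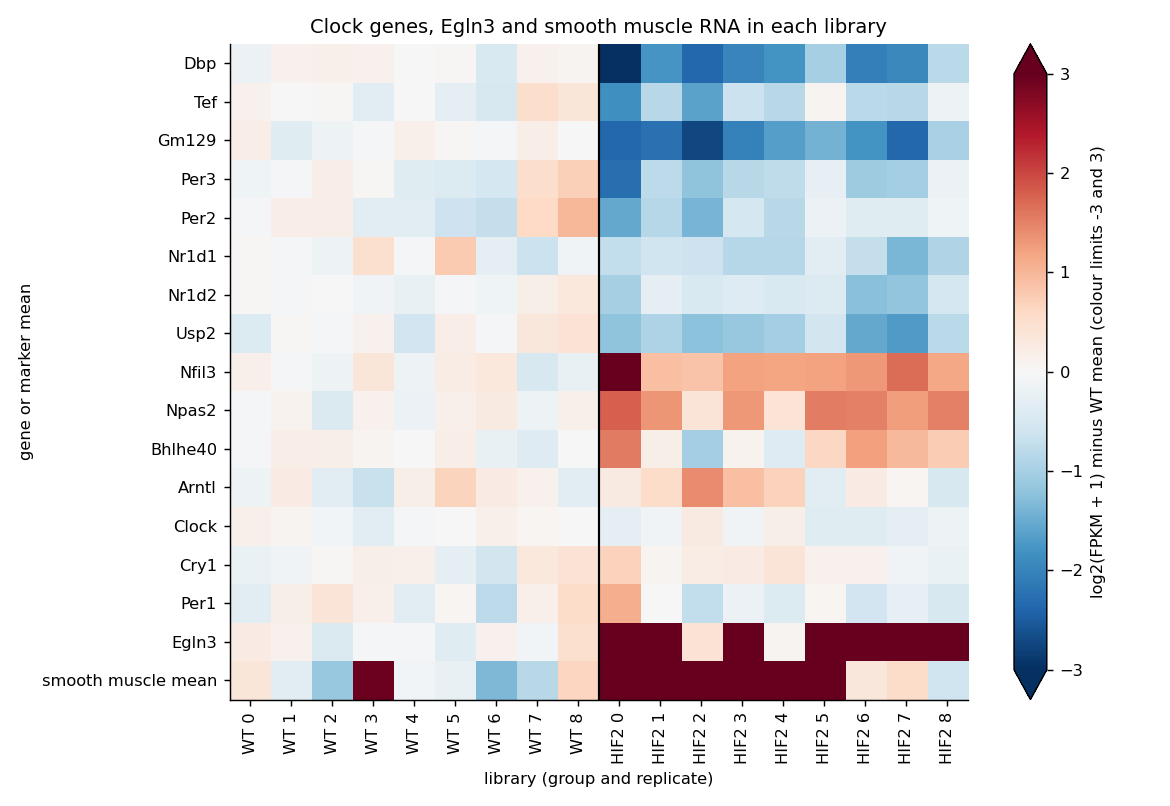
Colour gives log2(FPKM + 1) minus the WT mean of each gene (rows) in each library (columns, WT left and HIF2 right of the black line), with the mean of 10 smooth muscle markers in the last row, and colours are capped at 3 log2 units either side of 0. Dbp and Gm129 are low in every HIF2 library, whether smooth muscle RNA is high (replicates 0 to 5) or not (6 to 8), while Egln3 is near WT in HIF2 replicates 2 and 4, where Bhlhe40 is lowest.

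The order of levels differed between the groups. In WT the highest were Bhlhe40, Tef, Clock and Dbp, followed by Gm129, Arntl, Npas2, Nfil3, Hlf and Bhlhe41. The only neighbours in that order whose ranges did not overlap were Dbp and Gm129. In HIF2 the order was Bhlhe40, Clock, Tef, Arntl, Npas2, Nfil3, Dbp, Gm129, Hlf and Bhlhe41, and every pair of neighbours overlapped. Dbp thus moved from the 4th to the 7th place, and Npas2 and Nfil3 were each 2 places higher.

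The differences in Dbp, Gm129, Nfil3 and Npas2, by which these genes were chosen, are described here with and without the libraries that stood apart in smooth muscle RNA. In macrophage markers, HIF2 replicates 6 and 7 still lay above the WT range, and replicate 8 lay inside it. The macrophage marker means in HIF2 replicates 6 to 8 were 1.61, 1.59 and 0.90 log2 units above the WT mean, against -0.63 to 0.93 in WT libraries. The part of such cells in these differences was not tested. In HIF2 replicates 6 to 8 against 8 WT libraries, the differences in Dbp, Gm129, Nfil3 and Npas2 were -1.58 (SE 0.23), -1.71 (SE 0.23), 1.42 (SE 0.18) and 1.45 (SE 0.15). Adding the mean of the smooth muscle markers as a covariate gave -1.75, -1.75, 1.4 and 1.36. Tef differed by -0.64 (SE 0.21) and -0.67 (SE 0.28) in these settings. In HIF2 replicates 2 and 4, where Slc11a2 and Egln3 were inside the WT range, Dbp was 2.75 and 4.51 FPKM and Gm129 0.682 and 2.56 FPKM, all below every WT library. Npas2 and Bhlhe40 were lowest of all HIF2 libraries in those 2, and Clock was highest. These are 2 libraries picked out after their values were seen, and no test was made of them.

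The other genes of the loop were tested, since the choice of the 10 genes did not include them, though it was made with results of these libraries known. Of 9 tested Period, cryptochrome, REV-ERB and ROR genes, 4 fell in HIF2 and 1 rose, where 11.1% of all genes fell and 11.0% rose, and the median difference was -0.16 against -0.02 over all genes. Rorb was below the level used for testing. Nr1d2, a REV-ERB repressor gene, fell from 42.1 ± 5.11 to 26.9 ± 6.46 FPKM (SD, n = 9 each), by 0.66 (SE 0.13, limma adjusted p = 0.00155), with every HIF2 library below WT. Nr1d1, its relative, fell by 0.78 (SE 0.16, limma adjusted p = 0.00194) and lay below the WT range in 6 of 9 HIF2 libraries. Per3 fell from 13.2 ± 4.35 to 6.68 ± 2.79 FPKM, by 0.93 (SE 0.23, limma adjusted p = 0.00725), lower than the WT range in 7 of 9. Per3 no longer passed when the smooth muscle mean was a covariate (difference -0.90, SE 0.31, limma adjusted p = 0.0605), nor when HIF2 replicates 6 to 8 alone were set against WT without replicate 3 (difference -0.76, SE 0.29, limma adjusted p = 0.0928).

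Per2, a Period repressor gene, fell by 0.68 (SE 0.24, limma adjusted p = 0.0454), a call that was lost on leaving out any 1 of 10 libraries, with adjusted p up to 0.0878, and in 6 of 12 other alternatives. Rora, an activator of Arntl, rose by 0.82 (SE 0.25, limma adjusted p = 0.0228), from 0.839 to 2.29 FPKM. With the smooth muscle covariate its difference was 0.19 (adjusted p = 0.641), and Rora was highest among the WT libraries in replicate 3, at 2.11 FPKM, the WT library with much smooth muscle RNA. Rora also failed to pass with the replicate block (adjusted p = 0.0535) and without HIF2 replicates 2 and 4 (adjusted p = 0.0661). Nor did it pass in HIF2 replicates 6 to 8 against WT without replicate 3. It was 1.335, 0.654 and 0.835 FPKM in these HIF2 libraries, and 0.206 to 1.84 FPKM in these WT libraries. Among those that did not pass, Per1 differed by -0.16 (adjusted p = 0.653), Cry1 by 0.18 (adjusted p = 0.381) and Cry2 by -0.13 (adjusted p = 0.64). Those passing in every alternative, leaving out each library included, were Nr1d1 and Nr1d2, with adjusted p up to 0.0202 and 0.00817.

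**Figure D3:**
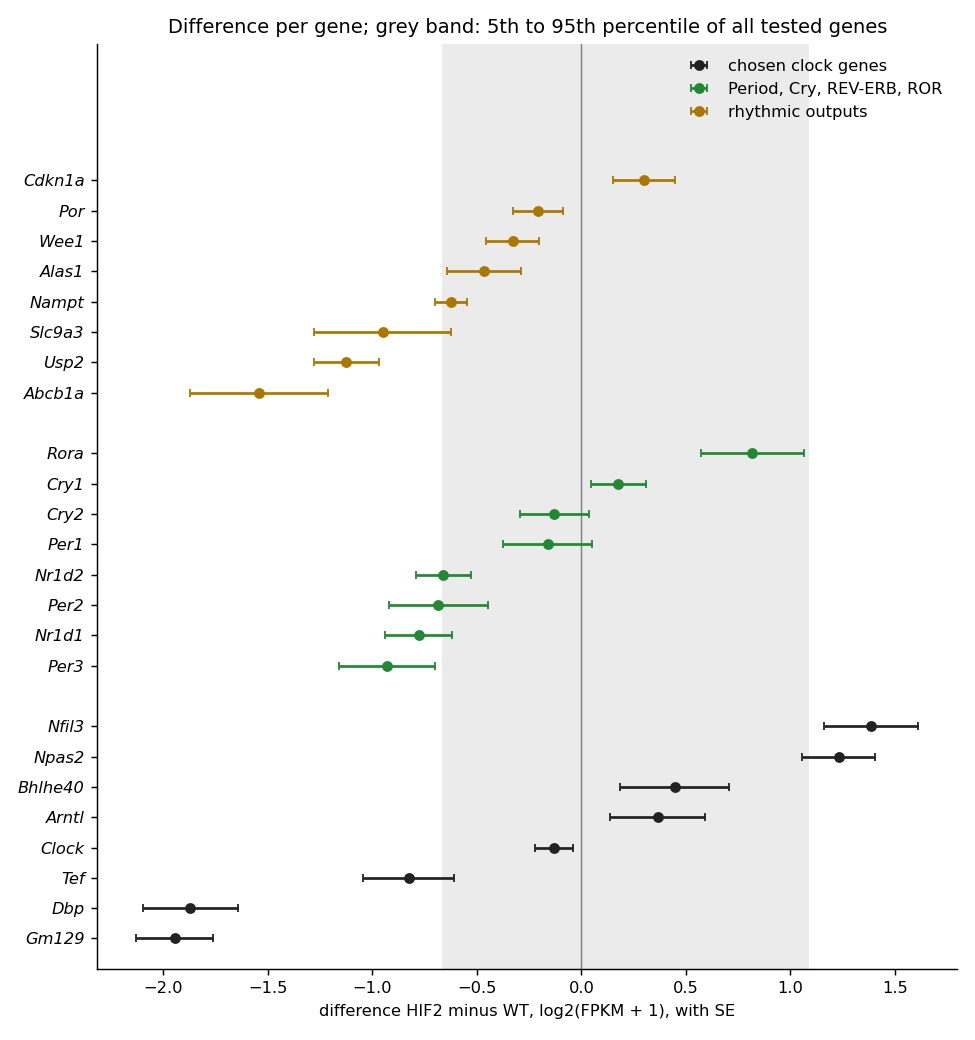
Difference HIF2 minus WT in log2(FPKM + 1) with its SE for 8 of the 10 clock genes (black), 8 Period, cryptochrome, REV-ERB and ROR genes (green) and 8 rhythmic output genes (brown); the grey band spans the 5th to 95th percentile of all 13976 tested genes. Gm129, Dbp, Abcb1a, Usp2, Slc9a3 and Per3 lie left of the band with Tef, Nr1d1 and Per2, and Nfil3 and Npas2 lie right of it.

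Of 8 tested genes known as rhythmic outputs of the clock in gut or liver, 4 fell and 0 rose (median difference -0.54, against -0.02 over all genes, of which 11.1% fell and 11.0% rose). Cdkn1a, a cell cycle inhibitor gene, differed by 0.30 (adjusted p = 0.166), and by 0.72 between HIF2 replicates 6 to 8 and the WT libraries other than replicate 3 (limma adjusted p = 0.000526). Usp2, a deubiquitinase gene, fell from 7.37 ± 1.78 to 2.86 ± 0.943 FPKM, by 1.12 (SE 0.16, limma adjusted p = 0.000106), below the WT range in 8 of 9 HIF2 libraries. Nampt, which makes a precursor of NAD, fell from 39.2 ± 4.17 to 25.1 ± 2.83 FPKM, by 0.62 (SE 0.08, limma adjusted p = 3.09e-05), below WT in 9 of 9. Abcb1a, an efflux pump of the intestinal epithelium, fell by 1.54 (SE 0.33, limma adjusted p = 0.00288), and Slc9a3, the sodium-proton exchanger, by 0.95 (SE 0.33, limma adjusted p = 0.0445). The Slc9a3 call was lost on leaving out any 1 of 13 libraries, with adjusted p up to 0.0779, and in 7 of 12 other alternatives. Its difference was -0.45 in HIF2 replicates 0 to 5 against all WT and -1.95 in HIF2 replicates 6 to 8 against WT without replicate 3. For Abcb1a these values were -1.13 and -2.47, and the call held in every alternative run. Epithelial markers moved too: 5 of 10 fell, Krt20, a marker of mature surface cells, by 0.67 (limma adjusted p = 0.00927), and 0 rose. Their part in the fall of Abcb1a and Slc9a3 was not tested.

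Genes known as targets of the PAR bZIP factors in liver, with Por and Alas1 also on the list of rhythmic outputs, showed 1 call in 7, Ppara, a lipid-sensing nuclear receptor gene, which fell by 0.48 (SE 0.15, limma adjusted p = 0.0325). It was lost on leaving out any 1 of 6 libraries (adjusted p up to 0.0665). Ces2a, a carboxylesterase gene, differed by -1.08 (SE 0.40, adjusted p = 0.0609), and Alas1, the first enzyme of haem synthesis, by -0.47 (SE 0.18, adjusted p = 0.0665). The list's median was -0.27, against -0.02 over all genes, of which 11.1% fell and 11.0% rose. Kinases and ubiquitin ligases that set the stability of clock proteins gave 0 calls in 9 with limma. None had an unadjusted p under 0.05, which 4707 of all 13976 tested genes had. Csnk1e, a casein kinase gene, differed by 0.29 (adjusted p = 0.264). Of 7 other bZIP genes, the C/EBP genes included, 0 passed, and 1, Atf5, had an unadjusted p under 0.05 (difference 0.40, adjusted p = 0.114). Of 5 tested relatives of Arntl, Clock and Npas2 that also carry PAS domains, 2 rose, Hif3a by 1.72 (limma adjusted p = 0.000379) and the aryl hydrocarbon receptor gene Ahr by 0.32 (limma adjusted p = 0.0277, lost without WT replicate 1, WT replicate 5 or HIF2 replicate 1, adjusted p up to 0.0562). The Ahr call was also lost in 4 of 12 other alternatives, where the smallest differences were 0.21, on adjusting for smooth muscle markers (adjusted p = 0.301), and 0.09, between HIF2 replicates 6 to 8 and the WT libraries other than replicate 3 (adjusted p = 0.604). Arntl2, the paralog of Arntl, was below the level used for testing.

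The spread of the genes within each group was computed without the difference between groups, but it is not free of the choice of genes. Groups lie apart more easily where the SD within them is small, so the ranks below are descriptions. In WT, the SD of log2(FPKM + 1) over 9 libraries was 0.20 for Dbp and 0.18 for Gm129, below the median of 0.23 over all tested genes, and 0.40 for Arntl, larger than in 84% of genes. In HIF2, it was 0.70 for Dbp, 0.61 for Tef, 0.54 for Gm129, 0.65 for Nfil3 and 0.82 for Bhlhe40, against a median of 0.31. Dbp and Bhlhe40 then exceeded 88.2% and 91.3% of genes, from 36.9% and 36.4% in WT. Clock was the least variable of the 8 in both groups, at 0.15 and 0.22. The mean level of Dbp and Gm129 was lower in HIF2 than in WT, and that of Bhlhe40 was higher.

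Relations between genes were tested within each group, over all 45 pairs in WT and 45 in HIF2. By Pearson's r, 4 of 90 passed after adjustment (exact permutation), and by Spearman's rho 0 did. The first was Dbp with Tef in HIF2, r = 0.94 (exact permutation p = 0.00124, adjusted p = 0.0279) and rho = 0.72 (exact permutation p = 0.0369, adjusted p = 0.337), with r = 0.92 without the 2 libraries farthest in Dbp. Over the 6 HIF2 libraries with much smooth muscle RNA r was 0.94 (exact permutation adjusted p = 0.188), and the other 3 are too few for a value. In WT, r was 0.45 (exact permutation p = 0.224, adjusted p = 0.689) and rho 0.15 (exact permutation p = 0.708, adjusted p = 0.965). Gm129 with Dbp in HIF2 had r = 0.80 and rho = 0.78 (exact permutation adjusted p = 0.139 and 0.287), and with Tef r = 0.82 and rho = 0.90 (exact permutation adjusted p = 0.116 and 0.138). The HIF2 libraries with more Dbp therefore tended to have more Tef, and the relation with Gm129 did not pass adjustment.

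In WT, Tef and Nfil3 varied in opposite directions, with r = -0.90 (exact permutation p = 0.00115, adjusted p = 0.0279) and rho = -0.88 (exact permutation p = 0.00307, adjusted p = 0.138), and r = -0.79 without the 2 libraries farthest in Tef. With TPM scaling this r in WT was -0.61 (exact permutation adjusted p = 0.4215). In HIF2 the r of Tef with Nfil3 was -0.50 (exact permutation adjusted p = 0.682). Bhlhe40 in HIF2 had r = 0.89 with Npas2 and r = -0.90 with Clock (exact permutation p = 0.000821 and 0.00102, adjusted p = 0.0279 each, rho = 0.75 and -0.77, exact permutation adjusted p = 0.287 each). HIF2 replicates 2 and 4 lay apart in Npas2 and Clock, and in the other 7 libraries these r were 0.72 and -0.66 (exact permutation adjusted p = 0.577 each, with fewer libraries to permute). With TPM scaling, Bhlhe40 in HIF2 had r = 0.89 with Npas2 and r = -0.68 with Clock (exact permutation adjusted p = 0.0789 and 0.4215). Whether a relation differed between WT and HIF2 was not tested. Arntl with Dbp, genes with different peak hours, had r = -0.56 in HIF2 and -0.28 in WT (exact permutation adjusted p = 0.476 and 0.856). Each of the 4 relations passing after adjustment failed to pass when single libraries were left out, Dbp with Tef for any of the 9 HIF2 libraries, with adjusted p up to 0.18. Its r stayed between 0.90 and 0.96.

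**Figure D4:**
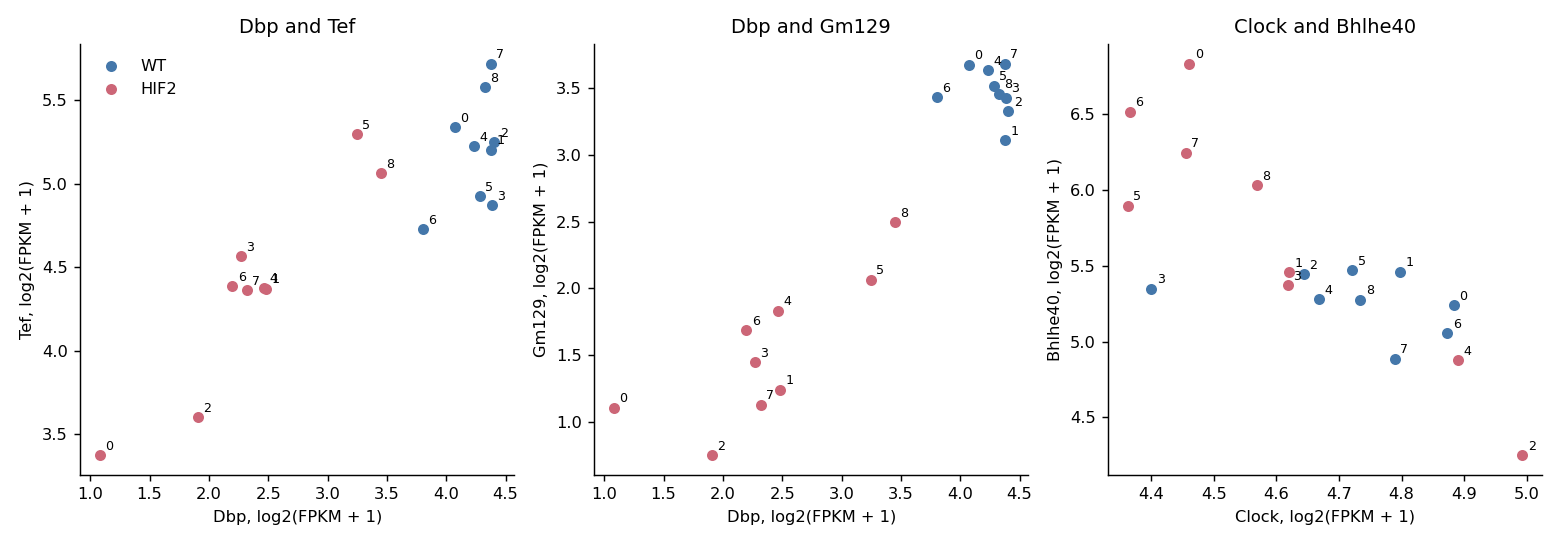
Each point is a library (number: replicate) with log2(FPKM + 1) of 2 genes on the axes, WT in blue and HIF2 in red. In HIF2, Tef and Gm129 are higher where Dbp is higher (r = 0.94 and 0.80), and Bhlhe40 is lower where Clock is higher, with replicates 2 and 4 at the lower right (r = -0.90 with them, -0.66 without).

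The genes most like Dbp and Arntl were sought over the 18 libraries after subtracting each group's mean, as a description. Genes compared this way share each library's depth and tissue makeup. For Dbp the highest r were with Rab43 (0.94), Adcy6 (0.90), Crat (0.88), Brap (0.88) and Btnl1 (0.87), and the lowest with Gng4 (-0.87), Zfp948 (-0.85), Nckap1 (-0.84), Cebpd (-0.83) and Egfr (-0.83). Among the clock genes, Per3 had r = 0.86 with Dbp and was 7th of all named genes, Tef had 0.86 and was 12th, Gm129 0.71 and Per2 0.64. For Arntl the highest were Kif18a (0.85), Hsp90aa1 (0.84), Hltf (0.82), Ttk (0.81) and Eri2 (0.80), and the lowest Pi4kb (-0.86), Mgat1 (-0.86), Dhodh (-0.84), Pnpla6 (-0.83) and Tcf3 (-0.82). Clock had r = 0.70 with Arntl.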

How the data were processed

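The authors deposited FPKM values, 1 column per library, per the file headers. Tools listed in the submitters' processing notes, with no order or role, are TopHat2 2.0.9, Bowtie2 2.1.0.0, Cufflinks, Cuffdiff 2.1.1 and FastQC, with mm10 as build. The annotation release was not given in the sources used here, and depth is unknown. The analysis used log2(FPKM + 1), unscaled, for genes with a mean of at least 1 FPKM, with limma 3.58.1 in R 4.3.3 (trended prior, 2-sided, Benjamini-Hochberg adjustment over 13976 genes). On simulated data, 200 of 13976 genes were shifted by 1 or 2 units of log2(FPKM + 1), which is a larger fold change in FPKM for low genes. Of shifts by 1 unit 78% were recovered, and of shifts by 2 units 95%, with 7 false calls. Genes were drawn independently with 1 SD for both groups, whereas the median SD was 0.23 in WT and 0.31 in HIF2. Variation shared between genes was not simulated, so these rates describe the simulation only. Relations within a group were tested by exact permutation over 9 libraries, 90 in all. The 10 genes, the gene lists and the rule for named genes (the 10 genes, the loop genes, up to 4 of each other list by smallest p, and the genes most like Dbp and Arntl) were chosen with earlier results of these data known. Of the cell type lists, fibroblast (8 of 8), endothelial (7 of 7), macrophage (7 of 7), neuron and glia (2 of 2) and smooth muscle (9 of 10) markers tested were higher in HIF2, as was 1 of 5 lymphocyte and 0 of 3 neutrophil markers. Over all tested genes 11.0% were higher. Coordinates are 1-based, from GENCODE M21 (GRCm38, the assembly mm10 denotes). Alternatives were pseudocount, filter, 3 scalings, a replicate block, a smooth muscle covariate, array weights and libraries left out. Leaving out HIF2 replicates 2 and 4 was chosen after seeing the data. Figures were drawn with matplotlib 3.10.9. Some genes counted in the lists are not reported here by name.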

Additional observations from a re-analysis of the deposited data

Results flagged for a closer look

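In a group of 9 libraries, a highest or lowest value was singled out when its gap to the nearest other library exceeded 0.493 of the group's range on the log2(FPKM + 1) scale. Chance gives this in about 1 in 20 groups, and 46 groups were checked, of which 4 held such a value. Nfil3 was 19.5 FPKM in HIF2 replicate 0, against 3.63 to 7.11 in the other HIF2 libraries. Per1 was 14.6 FPKM in the same library, against 3.41 to 6.69, and Per3 was 1.87 FPKM there, against 4.94 to 11. Clock was 20.1 FPKM in WT replicate 3, against 24 to 28.5 in the other WT libraries.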

How the results depend on the processing

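Over all genes, 3088 passed in the analysis as reported, 1896 with a filter at a mean of 5 FPKM (33.8% of them higher in HIF2, against 49.6% as reported, 60.8% with no filter and 57.5% with upper-quartile scaling) and 1977 with the smooth muscle covariate. Of the 9 tested Period, cryptochrome, REV-ERB and ROR genes, 5 passed, but 3 with a replicate block and without HIF2 replicates 2 and 4, and 2 with the smooth muscle covariate and in HIF2 replicates 6 to 8 against WT without replicate 3. The cause was not tested. With each library left out, 4 or 5 passed. Nothing in the labels says that replicate numbers pair the libraries. Same-numbered libraries had correlations of deviations from -0.0333 to 0.112, and such low values cannot exclude a pairing. Of the 8 tested members of the 10-gene set, 5 passed with the block too, 4 with the smooth muscle covariate or the filter at 5 FPKM, which leaves out Nfil3, 6 in HIF2 replicates 6 to 8 against WT without replicate 3 and 7 without HIF2 replicates 2 and 4. These counts on genes chosen by their difference are descriptions. Over all genes, 19.3% passed with the block, 14.1% with the smooth muscle covariate and 20.4% with the filter at 5 FPKM. The share was 19.1% in HIF2 replicates 6 to 8 against WT without replicate 3, and 21.8% without HIF2 replicates 2 and 4. Of the 8 tested rhythmic outputs, 4 fell, 3 with no filter, upper-quartile scaling or the block, and 5, with Cdkn1a rising, with the smooth muscle covariate and in HIF2 replicates 6 to 8 against WT without replicate 3. Of the 90 relations, 4 passed, and 0 with TPM scaling, without HIF2 replicates 6 to 8 and without HIF2 replicates 2 and 4. With each library left out, 0 to 4 passed. Fewer libraries leave fewer orders, so small p-values are harder to reach. No called value changed sign under any alternative run.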
